A study of Mus musculus with 80 samples.

Results

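DNA replication and S-phase genes were followed in RNA of liver nuclei from female mice that were fasted or fed. The members are 46 genes given by name, of 20105 genes in the count table, and all 46 were found there by symbol. They were grouped by role into origin licensing (9 genes), helicase activation (6), DNA polymerases and primase (6), the sliding clamp and its loader (4), nucleotide supply (5), flap cutting and ligation (2), chromatin behind the fork (3), fork protection, repair and relicensing control (5), and regulators of S-phase entry (6).

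Before a cell copies its DNA, the origin recognition complex and its loading factors place the ring-shaped MCM helicase on origins, and the helicase is switched on at the start of S phase by Cdc45 and the GINS complex. Primase and the replicative polymerases then copy both strands behind it, held on DNA by a sliding clamp. Most of these genes are transcribed mainly as cells approach S phase, when cyclin E and its kinase release the E2F factors from the retinoblastoma proteins. Adult hepatocytes are mostly quiescent and often polyploid, while Kupffer cells, the resident macrophages of the liver, renew themselves by division in place.

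The study asked how hepatocytes and macrophages respond to food withdrawal, apart from the time of day. HEP-INTACT and MAC-INTACT mice carry a tag by which nuclei of hepatocytes or of macrophages are pulled down on beads; what drives the tag, and how old the mice were, the labels do not state. Food was withdrawn from mice of either line at zeitgeber time (ZT) 12, the onset of the active phase, for 3, 8, 16 or 24 h, and the fasted mice were compared with ad libitum fed mice of the same line killed at the same times, ZT 15, 20, 4 and 12. Each of the 16 groups of tagged nuclei (fasted and fed at 4 times in 2 lines) held 4 libraries, and whole-liver nuclei of each condition and line gave 1 library, a pool of 4 mice.

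Total counts ran between 14968505 and 44694933 per library of macrophage nuclei, between 12597786 and 30089561 per library of hepatocyte nuclei, and between 13246494 and 35514304 per pool. The summed level of 9 Kupffer cell markers was 4064 to 7434 CPM (counts scaled to the size of the library) in macrophage nuclei, against 29.9 to 93.1 CPM in hepatocyte nuclei. The summed level of 9 hepatocyte markers was 3417 to 19440 CPM in macrophage nuclei and 5908 to 28920 CPM in hepatocyte nuclei, so the macrophage libraries also held hepatocyte RNA. The labels do not state that the 4 libraries of a group came from 4 animals, and p-values therefore measure the spread between these libraries. Some fed libraries stood apart from the rest of their group. Replicates 1 and 2 of macrophage nuclei at 24 h, and replicate 1 of hepatocyte nuclei at 8 h and at 24 h, had the highest member and mitosis levels of their groups. The main counts of members at those times are given with and without these libraries. Values of single genes are those of all libraries unless stated otherwise.

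The genes with the smallest p in the mean fasting test of macrophage nuclei were Dtl, Uhrf1, Mcm2, Pole, Mcm5 and Lig1, and the start regions of 4 of them are shown because the later results turn on them. Each window runs over 300 bases of build GRCm38.p6 from RefSeq, 250 before the transcription start and 50 from it on, on the strand of the gene. Capitals mark E2F words (TTTGGCGC, TTTCCCGC, TTTCGCGC, TTTGCCGC), CHR words (TTTGAA or TTCGAA) and the CCAAT box, each on either strand; these last are motifs of late cell cycle promoters. Dtl lies at chr1:191575495-191575794 (minus strand), Mcm5 at chr8:75109259-75109558 (plus), Mcm2 at chr6:88898731-88899030 (minus), and the windows of the 2 Uhrf1 starts at chr17:56303087-56303386 and chr17:56304063-56304362 (plus).
Dtl: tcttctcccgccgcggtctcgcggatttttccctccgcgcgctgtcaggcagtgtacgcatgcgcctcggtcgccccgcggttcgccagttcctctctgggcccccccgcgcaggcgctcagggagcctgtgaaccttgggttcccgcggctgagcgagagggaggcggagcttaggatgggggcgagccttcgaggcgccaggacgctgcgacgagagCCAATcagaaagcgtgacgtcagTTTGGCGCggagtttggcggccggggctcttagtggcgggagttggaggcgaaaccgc
Mcm5: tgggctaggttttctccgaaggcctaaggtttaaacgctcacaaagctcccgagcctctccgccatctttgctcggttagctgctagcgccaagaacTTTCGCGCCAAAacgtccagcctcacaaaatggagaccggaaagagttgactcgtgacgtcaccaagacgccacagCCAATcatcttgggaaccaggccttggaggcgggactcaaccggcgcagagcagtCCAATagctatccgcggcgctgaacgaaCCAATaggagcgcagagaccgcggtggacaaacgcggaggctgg
Mcm2: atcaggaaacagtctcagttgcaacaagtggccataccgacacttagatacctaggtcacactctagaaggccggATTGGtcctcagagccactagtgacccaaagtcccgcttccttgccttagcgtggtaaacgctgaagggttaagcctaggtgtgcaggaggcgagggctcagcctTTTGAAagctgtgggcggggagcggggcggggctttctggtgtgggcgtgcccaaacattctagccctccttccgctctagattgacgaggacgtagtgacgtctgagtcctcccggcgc
Uhrf1, upstream start: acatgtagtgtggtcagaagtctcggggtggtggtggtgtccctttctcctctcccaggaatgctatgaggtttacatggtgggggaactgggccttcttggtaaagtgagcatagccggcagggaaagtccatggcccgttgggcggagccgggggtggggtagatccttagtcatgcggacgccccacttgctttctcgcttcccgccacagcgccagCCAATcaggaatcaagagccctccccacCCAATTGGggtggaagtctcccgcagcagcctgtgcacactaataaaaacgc
Uhrf1, downstream start: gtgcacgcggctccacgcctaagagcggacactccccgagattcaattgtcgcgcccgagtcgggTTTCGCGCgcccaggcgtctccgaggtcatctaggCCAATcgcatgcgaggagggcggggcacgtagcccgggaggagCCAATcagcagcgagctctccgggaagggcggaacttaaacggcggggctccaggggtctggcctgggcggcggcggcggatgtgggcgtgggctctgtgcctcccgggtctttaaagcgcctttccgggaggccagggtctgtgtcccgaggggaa
Dtl had 1 E2F word, directly before the start (positions -8 to -1), and Mcm5 had 2 that overlap on opposite strands (-153 to -146 and -149 to -142). The downstream window of Uhrf1 had 1 E2F word and its upstream window had CCAAT alone. Mcm2 held a CHR word and a CCAAT but no E2F word of this spelling, and 1 of the 3 windows of Lig1 held the E2F word GCGCGAAA.

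Of the 46 members, 38 had a start region in the table, and 17 of these (44.7%) held an E2F word, against 704 of 27025 genes (2.6%). CCAAT stood in 24 members (63.2%) and in 41.1% of all genes, and a CHR word in 9 members (23.7%) and in 21.7% of all genes. A match describes letters and no binding site. Among the 17 members with an E2F word, 15 fell in macrophage nuclei after 24 h of fasting, with a median log2 fold change of -1.58, and among the 21 without one 13 fell, with a median of -1.19. Of all genes 6.35% fell there, and 12.4% fell in hepatocyte nuclei at 24 h. In those hepatocyte nuclei 9 of the 17 and 6 of the 21 members fell, with medians of -1.17 and -0.67. Whether members with and without the word differ was not tested. The split is given with all libraries only. Without fed macrophage replicates 1 and 2 of 24 h, 18 of the 46 members fell in place of 35, against 3.17% of all genes. Without fed hepatocyte replicate 1 of 24 h, 9 of 45 members fell in place of 17, against 9.96% of all genes.

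Fasting lowered many of the replication genes in macrophage nuclei, at 8 h and later more than at 3 h. Fasted libraries were lower than fed libraries for 1 of 46 members at 3 h (Mcm2), for 18 at 8 h, for 25 at 16 h and for 35 at 24 h, at an edgeR adjusted p below 0.05. The step between 16 h and 24 h rests on fed replicates 1 and 2 of 24 h, without which 18 members fell at 24 h, with a median log2 fold change of -0.82. Of all genes tested in these nuclei, 4.68%, 5.40%, 5.99% and 6.35% were called lower at the 4 times, and 7.70%, 7.44%, 7.72% and 5.31% higher. The median log2 fold change of the members was -0.29 at 3 h, -0.70 at 8 h, -0.91 at 16 h and -1.16 at 24 h, while that of all genes was between -0.05 and 0.04. edgeR called 0 members higher at any of these times; at an unadjusted p below 0.05 it had 1 member higher at 3 h, and DESeq2 called 1 higher at 3 h. In bulk nuclei, fewer cells in S phase and less RNA per cell cannot be told apart.

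**Figure D1:**
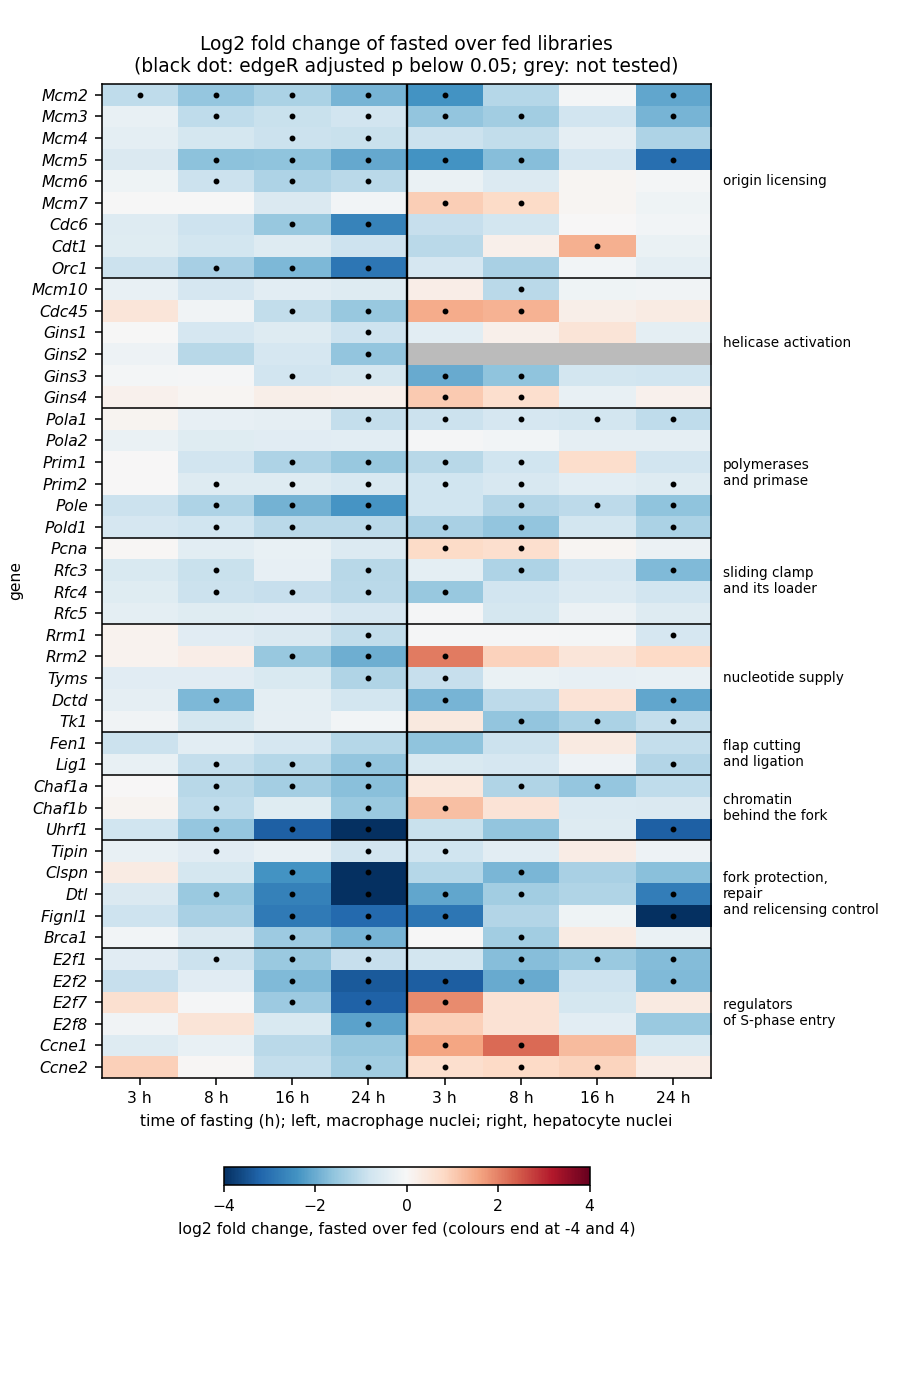
Log2 fold change of fasted over fed libraries (colour) for each of the 46 genes (rows, grouped by role) at 3, 8, 16 and 24 h in macrophage nuclei (left block) and hepatocyte nuclei (right block); a black dot marks an edgeR adjusted p below 0.05 and grey marks Gins2, which was not tested in hepatocyte nuclei. Dots in macrophage nuclei number 1, 18, 25 and 35 over the 4 times, all on lower values, whereas hepatocyte nuclei carry both lower and higher values.

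At 24 h, with all libraries, the members that fell came from every role. Of the licensing genes 7 of 9 fell, of helicase activation 4 of 6, of the polymerases and primase 5 of 6, of the clamp and its loader 2 of 4, of nucleotide supply 3 of 5, of flap cutting and ligation 1 of 2, and of the S-phase regulators 5 of 6. All 3 genes of chromatin behind the fork and all 5 of fork protection, repair and relicensing control fell. The median of the fork protection group, -3.10, was the lowest of the 9 roles and that of helicase activation, -0.77, the nearest to zero. Without fed replicates 1 and 2 the 18 members that fell held no gene of the clamp and its loader, 1 of helicase activation and still all 5 of fork protection, repair and relicensing control.

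Dtl encodes the subunit of a ubiquitin ligase that marks Cdt1 for destruction once DNA is being copied, which blocks a further round of licensing. At 24 h it had 0.755, 0.277, 0.238 and 0.5 CPM in fasted libraries, against 13.9, 10.4, 4.93 and 6.53 CPM in fed libraries (log2 fold change -4.35 ± 0.45 SE, edgeR adjusted p = 1.52e-06). Uhrf1, which reads hemimethylated DNA behind the fork and brings in the maintenance methyltransferase, had 0.294, 0.623, 0.579 and 0.278 CPM in fasted libraries, against 12.1, 11.9, 5.1 and 5.22 CPM in fed libraries (-4.20 ± 0.48, adjusted p = 3.01e-06). Clspn, the checkpoint adaptor claspin that travels with the fork, had 0.839, 1.04, 0.306 and 0.445 CPM in fasted libraries, against 15.4, 15.8, 4.44 and 7.95 CPM in fed libraries (-4.01 ± 0.50, adjusted p = 6.09e-06). In all 3 genes every fasted library lay below every fed one, and fed replicates 1 and 2 were the highest. Without those 2 replicates the log2 fold changes of Dtl, Uhrf1 and Clspn were -3.75, -3.51 and -3.24, and all 3 were still called.

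Among the E2F factors, the activator E2f2 had 0.587, 0.346, 0.443 and 0.278 CPM in fasted libraries at 24 h, against 7.37, 5.32, 2.58 and 2.32 CPM in fed libraries (-3.36 ± 0.41, edgeR adjusted p = 4.72e-06). E2f7, a repressor that closes the E2F program, had 1.09, 1.25, 0.681 and 1.39 CPM in fasted libraries, against 15.4, 11.8, 6.52 and 7.75 CPM in fed libraries (-3.23 ± 0.43, adjusted p = 1.05e-05). Cdc6, which loads the helicase on origins, had 0.587, 0.934, 1.06 and 0.612 CPM in fasted libraries, against 9.19, 6.28, 2.58 and 2.9 CPM in fed libraries (-2.67 ± 0.36, adjusted p = 1.56e-05). The groups of these genes did not overlap either, as in 33 of the 35 members that fell (94.3%), against 84.2% of all genes that fell. The activator and the repressor thus moved the same way. The other E2F members fell less far, by 2.13 ± 0.42 for the repressor E2f8 and by 0.91 ± 0.29 for the activator E2f1 on the log2 scale. With fed replicates 1 and 2 left out, E2f2 (-2.56), E2f7 (-2.73) and Cdc6 (-1.78) were still called. E2f8 (-1.22) and E2f1 (-0.42) were then not called.

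Calls among the helicase genes were uneven. Of the 6 subunits of the MCM ring, Mcm2 fell by 1.87 ± 0.30, Mcm5 by 2.05 ± 0.33, Mcm6 by 1.07 ± 0.21, Mcm4 by 0.90 ± 0.29 and Mcm3 by 0.77 ± 0.17 on the log2 scale at 24 h. Mcm7, the sixth, was not called (-0.10 ± 0.22) and had 11.8, 12.6, 8.85 and 9.17 CPM in fasted libraries, against 10.9, 12.7, 12.1 and 10.3 CPM in fed libraries. Orc1, the largest subunit of the origin recognition complex, fell by 2.90 ± 0.47. Cdt1, the partner of Cdc6 in loading, was at -0.83 ± 0.30 and did not pass the test. Of the activating factors, Cdc45 fell by 1.51 ± 0.27, Gins2 by 1.57 ± 0.40, Gins1 by 0.83 ± 0.26 and Gins3 by 0.70 ± 0.20. Gins4 (0.19 ± 0.17) and Mcm10 (-0.51 ± 0.28), which helps to start the helicase, were not called. Of these falls, Mcm2 (-1.54), Mcm5 (-1.36), Orc1 (-2.2) and Cdc45 (-1.02) were still called without fed replicates 1 and 2. Mcm3 (-0.37), Mcm4 (-0.48), Mcm6 (-0.74), Gins1 (-0.40), Gins2 (-1.30) and Gins3 (-0.42) were not called without them. With all libraries, Mcm7 averaged 11.5 CPM in fed macrophage and 13.9 CPM in fed hepatocyte nuclei at 24 h. In the same order Mcm10 averaged 18.9 and 34.4 CPM, Mcm2 5.08 and 2.12 CPM, and Mcm5 13.4 and 3.3 CPM. Cdt1, which was not called, averaged 2.38 and 0.52 CPM. The part of hepatocyte RNA in the uneven calls was not tested.

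Of the enzymes that synthesise DNA, Pole, the catalytic subunit of the leading-strand polymerase, fell by 2.37 ± 0.35, and Pold1, that of the lagging-strand polymerase, by 1.09 ± 0.27 on the log2 scale at 24 h. The primase subunits Prim1 and Prim2 fell by 1.52 ± 0.34 and by 0.66 ± 0.13. Pola1, the catalytic subunit of polymerase alpha, which extends the primer, fell by 0.95 ± 0.16, and its accessory subunit Pola2 did not pass the test (-0.42 ± 0.19). The clamp loader subunits Rfc3 and Rfc4 fell by 1.12 ± 0.24 and by 1.08 ± 0.30, whereas Rfc5 (-0.69 ± 0.23) and the clamp Pcna (-0.54 ± 0.22) were not called. Lig1, the ligase that seals lagging-strand fragments, had 5.58, 7.82, 8.31 and 7.84 CPM in fasted libraries and 31.3, 27.3, 13.8 and 17 CPM in fed libraries, and fell by 1.58 ± 0.23. Fen1, which cuts the flaps before ligation, was at -1.13 ± 0.39 and was not called. When fed replicates 1 and 2 were left out, Pole (-1.76), Pola1 (-0.82) and Lig1 (-1.09) kept their calls. Pold1 (-0.74), Prim1 (-0.81), Prim2 (-0.49), Rfc3 (-0.86) and Rfc4 (-0.78) lost theirs.

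In nucleotide supply, the ribonucleotide reductase subunits Rrm2 and Rrm1 fell by 1.95 ± 0.42 and by 0.99 ± 0.22, and thymidylate synthase, Tyms, by 1.19 ± 0.23 on the log2 scale at 24 h. Thymidine kinase, Tk1, did not pass (-0.10 ± 0.26), nor did the deoxycytidylate deaminase Dctd (-0.75 ± 0.26), although Dctd had fallen at 8 h. The chromatin assembly subunits Chaf1a and Chaf1b fell by 1.67 ± 0.26 and by 1.49 ± 0.30. Of fork protection and repair, Fignl1, an AAA ATPase of DNA repair, fell by 3.10 ± 0.54, the repair factor Brca1 by 1.85 ± 0.33, and Tipin, a partner of Timeless at the fork, by 0.76 ± 0.13. Cyclin E2, Ccne2, fell by 1.39 ± 0.33, and cyclin E1, Ccne1, did not pass (-1.51 ± 0.54). Tyms (-0.85), Chaf1a (-1.1), Fignl1 (-2.40), Brca1 (-1.24) and Tipin (-0.68) were still called without fed replicates 1 and 2. Rrm2 (-1.34), Rrm1 (-0.71), Chaf1b (-1.07) and Ccne2 (-1.23) were not called without them.

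**Figure D2:**
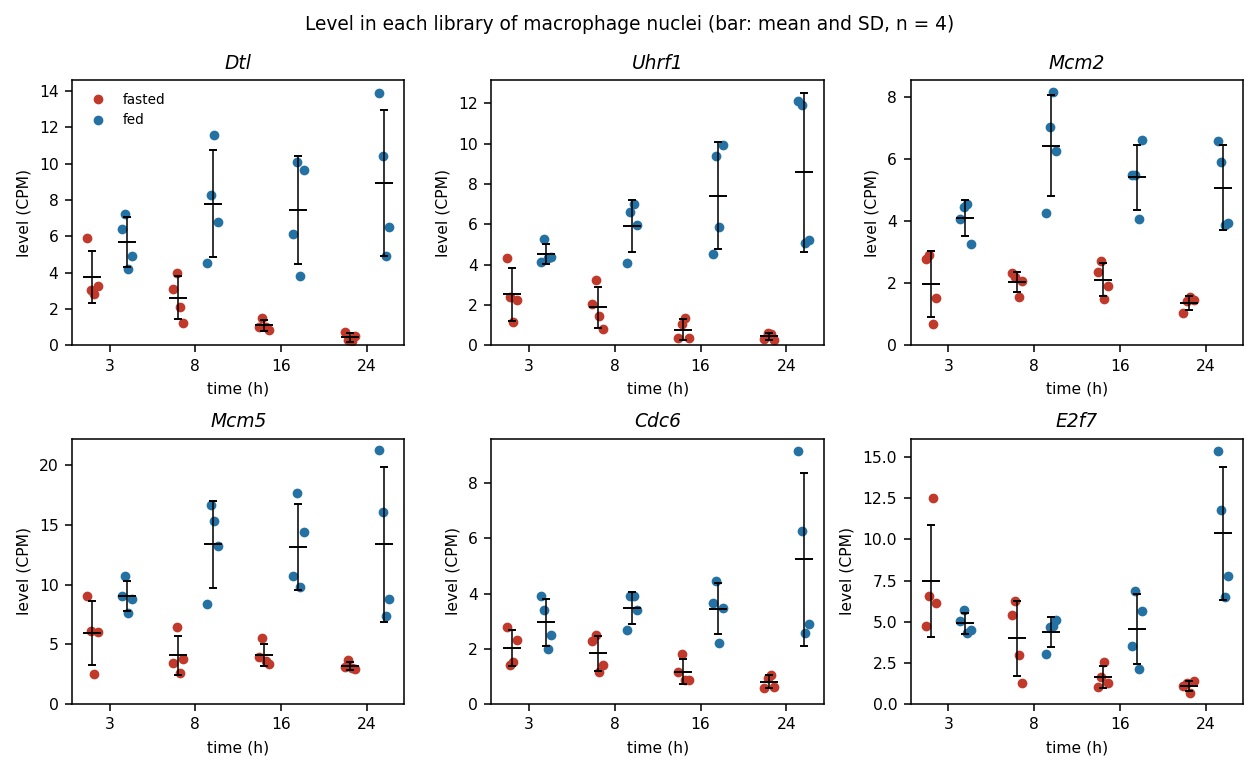
Levels in CPM of Dtl, Uhrf1, Mcm2, Mcm5, Cdc6 and E2f7 in each library of macrophage nuclei at 3, 8, 16 and 24 h, fasted (red) left of fed (blue), with the mean and SD (n = 4 each). Mcm2 is lower in all fasted libraries at every time, and at 24 h fasted Dtl lies at 0.238 to 0.755 CPM, against 4.93 to 13.9 CPM in fed libraries.

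The time of the first call differed between genes, which does not give an order of events. Mcm2 alone was called at 3 h, with 2.78, 2.91, 0.697 and 1.54 CPM in fasted libraries, against 4.08, 4.45, 4.56 and 3.27 CPM in fed libraries (-1.01 ± 0.29, edgeR adjusted p = 0.0209). The F-test for a fasting effect that differs between times did not call Mcm2 (adjusted p = 0.404). Without fasted replicate 1 there were 5 calls at 3 h, and without fasted replicate 2 there were 3. The call of Mcm2 was lost when fasted replicate 3 or 4 or fed replicate 2 or 3 was left out, with the log2 fold change at its nearest to zero, -0.75, without fasted replicate 3. Mcm2 fell again at each later time, alone among the members in doing so at all 4 times, and over the 4 times its 16 fasted libraries ranged between 0.697 and 2.91 CPM (median 1.74), against 3.27 to 8.16 CPM (median 5.02) in the 16 fed libraries (-1.43 ± 0.14, adjusted p = 1.95e-08).

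At 8 h the smallest p-values were those of a deaminase, licensing genes, a chromatin assembly factor and the ligase. Dctd had 0.526, 0.786, 0.862 and 1.29 CPM in fasted libraries, against 2.94, 4.23, 3.07 and 2.61 CPM in fed libraries (-1.79 ± 0.27, edgeR adjusted p = 9.97e-05). Mcm3 had 7.49, 8.57, 5.58 and 6.57 CPM in fasted libraries, against 11.7, 17.4, 15.9 and 15.4 CPM in fed libraries (-1.0 ± 0.17, adjusted p = 0.000384). Mcm2 had 2.33, 2.2, 1.57 and 2.07 CPM in fasted libraries, against 4.27, 7.04, 8.16 and 6.26 CPM in fed libraries (-1.55 ± 0.29, adjusted p = 0.000732). In none of these 3 genes did a fasted library reach the lowest fed one. Mcm5 had 3.39, 6.45, 2.59 and 3.79 CPM in fasted libraries, against 8.35, 16.7, 15.3 and 13.2 CPM in fed libraries (-1.63 ± 0.32, adjusted p = 0.00151). Chaf1a had 3.65, 4.48, 3.45 and 3.17 CPM in fasted libraries, against 5.38, 9.72, 10.5 and 8.23 CPM in fed libraries (-1.10 ± 0.25, adjusted p = 0.00478). Lig1 had 11.7, 13.9, 6.74 and 9.07 CPM in fasted libraries, against 16.6, 23.6, 23.2 and 21.3 CPM in fed libraries (-0.94 ± 0.22, adjusted p = 0.00622). These groups were apart as well, with fed replicate 1 the lowest of its group in each of the 3 genes. The count of 18 fell to 8 without fasted replicate 3, and to 11 without fasted replicate 4 or without fed replicate 2.

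At 16 h the largest changes were already those of Uhrf1, Dtl and Fignl1. Uhrf1 had 0.354, 1.06, 1.37 and 0.368 CPM in fasted libraries, against 4.51, 9.38, 5.86 and 9.94 CPM in fed libraries (-3.25 ± 0.45, edgeR adjusted p = 3.0e-05). Dtl had 1.02, 1.52, 1.03 and 0.828 CPM in fasted libraries, against 6.15, 10.1, 3.83 and 9.63 CPM in fed libraries (-2.70 ± 0.40, adjusted p = 6.36e-05). Fignl1 had 0.334, 0.23, 0.299 and 0.245 CPM in fasted libraries, against 1.81, 2.51, 1.54 and 2.75 CPM in fed libraries (-2.83 ± 0.52, adjusted p = 0.000714). Fasted libraries of each lay well below the fed ones. Mcm6 had 3.78, 4.97, 5.77 and 6.41 CPM in fasted libraries, against 13.2, 15.1, 9.51 and 14.5 CPM in fed libraries (-1.25 ± 0.21, adjusted p = 0.000325). Pole had 2.12, 3.22, 2.56 and 2.42 CPM in fasted libraries, against 8.18, 13.3, 6.3 and 12.6 CPM in fed libraries (-1.90 ± 0.35, adjusted p = 0.000714). Chaf1a had 2.73, 2.85, 3.67 and 2.91 CPM in fasted libraries, against 7.84, 10.2, 5.18 and 9.9 CPM in fed libraries (-1.37 ± 0.25, adjusted p = 0.00076). Here too the groups did not overlap, by the choice of genes. All 25 members that fell at 16 h were also among the 35 of 24 h with all libraries. Of the 25, Mcm3, Mcm4, Mcm6, Gins3, Rfc4, Pold1, Prim1, Prim2, Rrm2 and E2f1 were not called at 24 h without fed replicates 1 and 2 of 24 h.

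Averaged over the 4 times, 42 of the 46 members were lower in fasted than in fed macrophage nuclei, against a background of 17.1% of all genes lower and 18.9% higher. Tk1, Ccne2, Gins4 and Mcm7 were the 4 not called, with log2 fold changes between -0.34 and 0.17. The fasting effect differed between times for 13 of 46 members, in an F-test that called 4.65% of all genes. These 13 were E2f7, Clspn, Dtl, Uhrf1, E2f2, Cdc45, Ccne2, Chaf1a, Pola1, E2f8, Cdc6, Rrm2 and Dctd, and DESeq2 called 21. Leaving out replicate 1 of every group left 2, leaving out replicate 2 left 4 and leaving out replicate 4 left 5, and without fed replicates 1 and 2 of 24 h there were 7. They did not share 1 course. E2f7 had lower fasted levels the longer the fast: its fasted libraries averaged 7.47 ± 3.44, 3.98 ± 2.29, 1.62 ± 0.653 and 1.10 ± 0.306 CPM at 3, 8, 16 and 24 h, and its fed libraries averaged 4.90 ± 0.631, 4.39 ± 0.908, 4.53 ± 2.12 and 10.4 ± 4.03 CPM (SD, n = 4 each). Dctd was lowest at 8 h, with a mean of 0.866 CPM in fasted and 3.21 CPM in fed libraries, and at 24 h had 1.32 CPM in fasted and 2.24 CPM in fed libraries, which did not pass the test. Time of day among fed macrophage libraries was called for 3 members, Ccne2, E2f7 and Rrm2, against 12.8% of all genes, and for 8 without replicate 3 and at most 1 without any other replicate number.

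**Figure D3:**
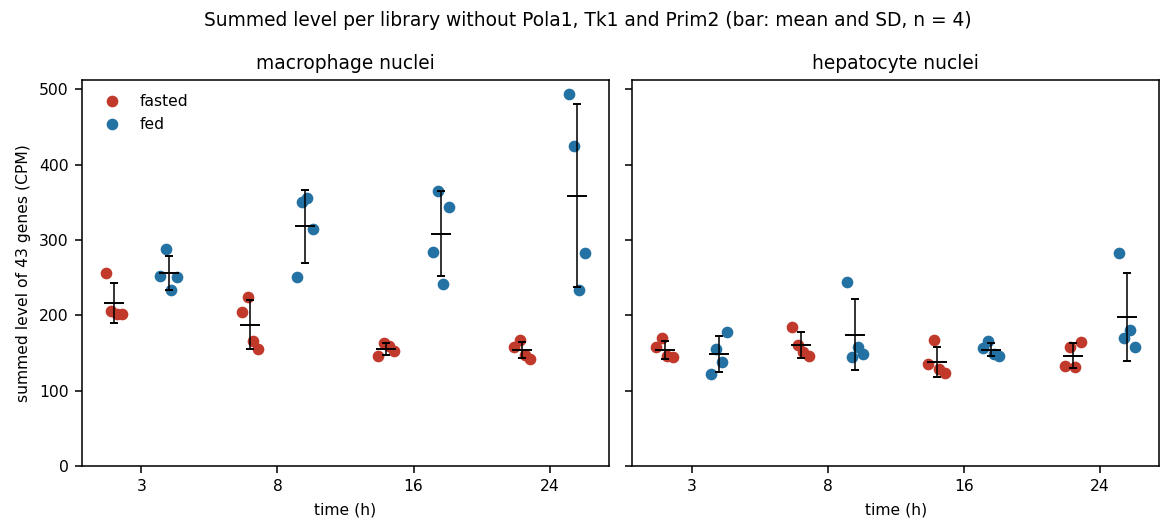
Summed level in CPM of 43 members (without Pola1, Tk1 and Prim2, the most abundant) per library of macrophage nuclei (left panel) and hepatocyte nuclei (right panel), fasted (red) left of fed (blue) at each time, with the mean and SD (n = 4 each). At 24 h the macrophage means are 154 CPM fasted and 359 CPM fed, with fed replicates 1 and 2 at 495 and 425 CPM, and the hepatocyte means are 146 CPM fasted and 198 CPM fed, or 169 CPM without fed replicate 1 at 283 CPM.

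As Pola1, Tk1 and Prim2 together made up 54.8% of the summed CPM of the members, their sum was taken without them. In macrophage nuclei it was 216 ± 26.9, 187 ± 32.7, 155 ± 7.60 and 154 ± 11.1 CPM in fasted libraries at 3, 8, 16 and 24 h, and 256 ± 22.9, 318 ± 48.5, 309 ± 56.6 and 359 ± 122 CPM in fed libraries (SD, n = 4 each). Library numbers in macrophage nuclei form 4 runs of 8 consecutive numbers, each with 1 fasted and 1 fed library per time; within the runs the 24 h ratio of fasted over fed sums was 0.32, 0.393, 0.633 and 0.503, and between 43 and 45 of 46 members were lower in the fasted library. With run as a term 36 members were called at 24 h. Within the 3 runs of hepatocyte libraries the 24 h ratio was 0.642, 0.727 and 1.04, so that 1 run went the other way. Without fed macrophage replicates 1 and 2 at 24 h, an alternative chosen after seeing the data, 3.17% of all genes fell beside the 18 of 46 members. Those 18 were Brca1, Cdc45, Cdc6, Chaf1a, Clspn, Dtl, E2f2, E2f7, Fignl1, Lig1, Mcm2, Mcm5, Orc1, Pola1, Pole, Tipin, Tyms and Uhrf1.

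Markers of other cells were measured beside these values. The summed level of hepatocyte markers in macrophage libraries was 8302 to 19440 CPM in fasted and 4619 to 7638 CPM in fed libraries at 3 h, and 6621 to 8155 CPM in fasted and 3417 to 5093 CPM in fed libraries at 8 h, both without overlap. At 16 h it was 5139 to 6351 CPM in fasted and 3764 to 5277 CPM in fed libraries, which overlap. In hepatocyte nuclei the same sum was also higher in fasted libraries at 3 h, with means of 21630 CPM fasted and 11720 CPM fed. At 24 h its means there were 23460 CPM fasted and 17670 CPM fed, and at 8 h and 16 h its ranges overlapped. The sum therefore does not measure the share of hepatocyte RNA alone. At 24 h the summed level of hepatocyte markers averaged 9963 ± 1638 CPM in fasted and 7214 ± 2921 CPM in fed macrophage libraries, and that of Kupffer cell markers 5459 ± 715 CPM in fasted and 5343 ± 610 CPM in fed libraries (SD, n = 4 each), with ranges that overlap. Of the 9 Kupffer cell markers 2 rose at 24 h. The 8 monocyte and neutrophil markers summed to 1.66 to 2.52 CPM in fasted and 3.26 to 5.86 CPM in fed libraries at 24 h. At 16 h they summed to 2.56 to 3.835 CPM in fasted and 4.88 to 6.65 CPM in fed libraries. Neither pair of ranges overlapped, while those at 3 h and 8 h did. Ccr2 alone, a receptor of incoming monocytes, made up 94.2% of this sum over all macrophage libraries. The part of these other cells in the result was not tested. Lymphocyte markers without Ptprc, which macrophages also express, summed to 1.22 to 2.28 CPM in fasted and 1.85 to 2.75 CPM in fed libraries at 24 h.

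Other genes of the cell cycle were read from lists that do not share members with the 46. In macrophage nuclei at 24 h, 25 of 28 mitosis genes fell, with a median log2 fold change of -2.56, and at 16 h 7 fell. Their 4 smallest p-values belonged to Top2a, which untangles DNA (-3.72 ± 0.44), Kif4, a chromosome motor (-3.45 ± 0.45), Bub1, a spindle checkpoint kinase (-4.43 ± 0.58), and Prc1, which bundles the midzone of the spindle (-3.41 ± 0.45). The summed mitosis level was 60.4 to 87.9 CPM in fasted libraries and 160 to 559 CPM in fed ones, and without fed replicates 1 and 2 17 of 28 fell. Among 68 other replication genes, 25 fell and 1 rose at 24 h, with a median of -0.37, so a smaller share of them fell than of the 46; that difference was not tested. Without the same 2 libraries 12 of the 68 fell. Of all genes 6.35% fell at 24 h, or 3.17% without those libraries, and 5.99% fell at 16 h. Of 9 D cyclins and CDK inhibitors tested, Ccnd3 (1.40 ± 0.23) and Cdkn1a, the inhibitor p21 (1.91 ± 0.39), rose, while Ccnd1 (-1.79 ± 0.36), Cdkn2c (-1.43 ± 0.30), Ccnd2 (-0.66 ± 0.16) and Cdkn2a (-0.97 ± 0.29) fell; without the same 2 libraries 2 rose and 1 fell.

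In hepatocyte nuclei fasting moved the same genes both ways. At 3 h 9 members rose and 15 of 45 tested fell, at 8 h 6 rose and 17 fell, at 16 h 2 rose and 5 fell, and at 24 h 17 fell. Of all genes in these nuclei, 19.5% rose and 20.4% fell at 3 h, 18.0% and 20.7% at 8 h, 9.55% and 8.55% at 16 h, and 11.6% and 12.4% at 24 h. The share of members that rose lay near that background at 3 h and below it at the later times. At 16 h the share that fell also lay near it. The median log2 fold change of the members was -0.75 at 3 h, -0.78 at 8 h, -0.31 at 16 h and -0.76 at 24 h, while that of all genes was between -0.03 and 0.01. Without fed replicate 1 of the time in question the median was -0.46 at 8 h and -0.38 at 24 h. edgeR called 0 members higher at 24 h, also at an unadjusted p below 0.05, as did DESeq2. Gins2 was the member left out for low counts. Kupffer cell markers summed to 36.4 to 76.8 CPM in fasted and 34.8 to 56.8 CPM in fed hepatocyte libraries at 3 h, to 56.2 to 93.1 CPM in fasted and 35.4 to 44.8 CPM in fed libraries at 8 h, and to 49.6 to 54.3 CPM in fasted and 29.9 to 49.1 CPM in fed libraries at 24 h. The groups did not overlap at 8 h and at 24 h, and the part of these cells in the result was not tested.

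Early in the fast the helicase activators parted. Cdc45, which rides with the MCM ring in the active helicase, had 8.99, 3.68, 9.26 and 4.71 CPM in fasted libraries at 3 h, against 1.75, 2.31, 1.79 and 3.08 CPM in fed libraries (1.5 ± 0.28, edgeR adjusted p = 0.000113). Gins4 had 6.34, 5.73, 6.93 and 8.64 CPM in fasted libraries, against 3.07, 3.62, 2.66 and 3.45 CPM in fed libraries (1.03 ± 0.21, adjusted p = 0.000206). Gins3, another subunit of the same GINS complex, had 0.599, 0.499, 0.266 and 0.393 CPM in fasted libraries, against 0.98, 1.94, 2.34 and 1.75 CPM in fed libraries (-2.03 ± 0.41, adjusted p = 0.000257). Thus 2 subunits of 1 complex moved in opposite directions, each without overlap of the groups. Rrm2 had 5.44, 2.43, 6.06 and 4.08 CPM in fasted libraries, against 0.682, 1.11, 0.706 and 1.54 CPM in fed libraries (2.08 ± 0.41, adjusted p = 0.000189). Pola1 had 46.9, 51.8, 32.4 and 40.7 CPM in fasted libraries, against 62.9, 72.1, 67.8 and 92.9 CPM in fed libraries (-0.85 ± 0.16, adjusted p = 0.000108). E2f2 had 0.549, 0.187, 0.333 and 0.628 CPM in fasted libraries, against 2.77, 3.95, 3.86 and 5.31 CPM in fed libraries (-3.28 ± 0.55, adjusted p = 2.43e-05). Rrm2 was higher, and Pola1 and E2f2 lower, in every fasted library than in any fed one. The other members that rose at 3 h were Mcm7, Pcna, Chaf1b, E2f7, Ccne1 and Ccne2. TMM scaling raised fasted over fed values at 3 h by 0.20 on the log2 scale in hepatocyte nuclei and by 0.14 in macrophage nuclei relative to library totals, and the log2 fold changes of the 9 members that rose were 0.68 to 2.08.

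At 8 h Cdc45 stayed high, with 5.76, 6.81, 6.28 and 8.96 CPM in fasted libraries, against 3.65, 2.13, 1.76 and 2.11 CPM in fed libraries (1.39 ± 0.28, edgeR adjusted p = 0.000306). Ccne1, the cyclin that starts S phase, had 1.42, 0.79, 0.665 and 0.717 CPM in fasted libraries, against 0.28, 0.23, 0.203 and 0 CPM in fed libraries (2.26 ± 0.52, adjusted p = 0.00114). E2f1 had 0.411, 1.22, 0.846 and 0.717 CPM in fasted libraries, against 3.7, 1.67, 2.17 and 1.9 CPM in fed libraries (-1.71 ± 0.41, adjusted p = 0.00137). The cyclin was higher and the E2F activator lower in all fasted libraries. Pold1 had 2.92, 2.68, 2.24 and 2.6 CPM in fasted libraries, against 9.37, 6.61, 5.28 and 7.6 CPM in fed libraries (-1.58 ± 0.31, adjusted p = 0.000198). Tk1 had 38.5, 31, 37.9 and 14.6 CPM in fasted libraries, against 86.4, 112, 67 and 69.8 CPM in fed libraries (-1.57 ± 0.34, adjusted p = 0.000657). Mcm10 had 12.2, 6.81, 6.71 and 10.8 CPM in fasted libraries, against 25, 13.4, 15.6 and 16.6 CPM in fed libraries (-1.06 ± 0.24, adjusted p = 0.000895). All 3 were lower without overlap. In every gene shown here at 8 h but Tk1, fed replicate 1 was the highest fed library. Mcm7, Gins4, Pcna and Ccne2 also rose at 8 h. Without fed replicate 1 at 8 h, 8 members rose and 9 fell, in place of 6 and 17, and 17% of all genes rose and 17.6% fell. These 8 and 9 are 17.8% and 20% of the members tested, near that background, so the larger number that fell at 8 h rests on 1 library.

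At 16 h the changes were fewest, and the share of members that fell lay near, and the share that rose below, that of all genes. Pola1 had 56.7, 47, 52.8 and 42.2 CPM in fasted libraries, against 87.2, 76.9, 83.3 and 74.7 CPM in fed libraries (-0.72 ± 0.16, edgeR adjusted p = 0.00196). E2f1 had 0.465, 0.551, 0.494 and 0.564 CPM in fasted libraries, against 1.74, 1.69, 0.847 and 1.45 CPM in fed libraries (-1.49 ± 0.43, adjusted p = 0.0145). Chaf1a had 1.05, 0.551, 0.947 and 0.307 CPM in fasted libraries, against 1.79, 2.38, 2.67 and 1.49 CPM in fed libraries (-1.55 ± 0.48, adjusted p = 0.0244). These fell without overlap, as did Pole. Pole had 2.5, 3.69, 3.13 and 1.64 CPM in fasted libraries, against 5.48, 6.34, 6.06 and 4.67 CPM in fed libraries (-1.06 ± 0.38, adjusted p = 0.0487). Cdt1 had 1.22, 2.2, 0.865 and 0.717 CPM in fasted libraries, against 0.448, 0.376, 0.456 and 0.513 CPM in fed libraries (1.42 ± 0.48, adjusted p = 0.0389). Cdt1 was thus higher in each fasted library, and Ccne2 was the other member that rose. The calls of Chaf1a, Pole and Cdt1 were each lost when at least 1 library was left out, and the count of 7 fell to 3 without fed replicate 3 and to 4 without fasted replicate 1, 3 or 4 or fed replicate 2 or 4.

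By 24 h the members called in hepatocyte nuclei had all fallen. Pola1 had 43.7, 42.2, 46.7 and 44.2 CPM in fasted libraries, against 103, 65.1, 99.2 and 82.9 CPM in fed libraries (-1.0 ± 0.16, edgeR adjusted p = 5.16e-05). Rfc3 had 0.741, 0.767, 0.395 and 0.489 CPM in fasted libraries, against 2.13, 2.12, 2.33 and 1.44 CPM in fed libraries (-1.76 ± 0.40, adjusted p = 0.00195). Pole had 2.49, 3.49, 2.91 and 3.67 CPM in fasted libraries, against 18.6, 7.73, 6.76 and 4.91 CPM in fed libraries (-1.61 ± 0.37, adjusted p = 0.00234). No fasted library reached the fed ones in these 3. Mcm5 had 0.404, 0.597, 0.287 and 0.326 CPM in fasted libraries, against 9.27, 1.27, 1.28 and 1.39 CPM in fed libraries (-3.02 ± 0.61, adjusted p = 0.000716). Dtl had 0.135, 0.17, 0.395 and 0.734 CPM in fasted libraries, against 5.67, 0.85, 1.52 and 1.28 CPM in fed libraries (-2.78 ± 0.60, adjusted p = 0.00137). Fignl1 had 1 count over the 4 fasted libraries and 43 counts over the 4 fed ones, a ratio of 0.0204 per count sequenced (95% exact interval 0.000506 to 0.12, counting error only). Without fed replicate 1 there were 14 fed counts and the ratio was 0.0491 (0.00116 to 0.323). In these 3 genes fed replicate 1 lay far above the other fed libraries, and the groups still did not overlap. Without that library 9 of 45 members fell, Dctd, Dtl, E2f1, Fignl1, Mcm5, Pola1, Pold1, Pole and Rfc3, against 9.96% of all genes, and the log2 fold change of Mcm5 was -1.71 and that of Dtl -1.88.

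**Figure D4:**
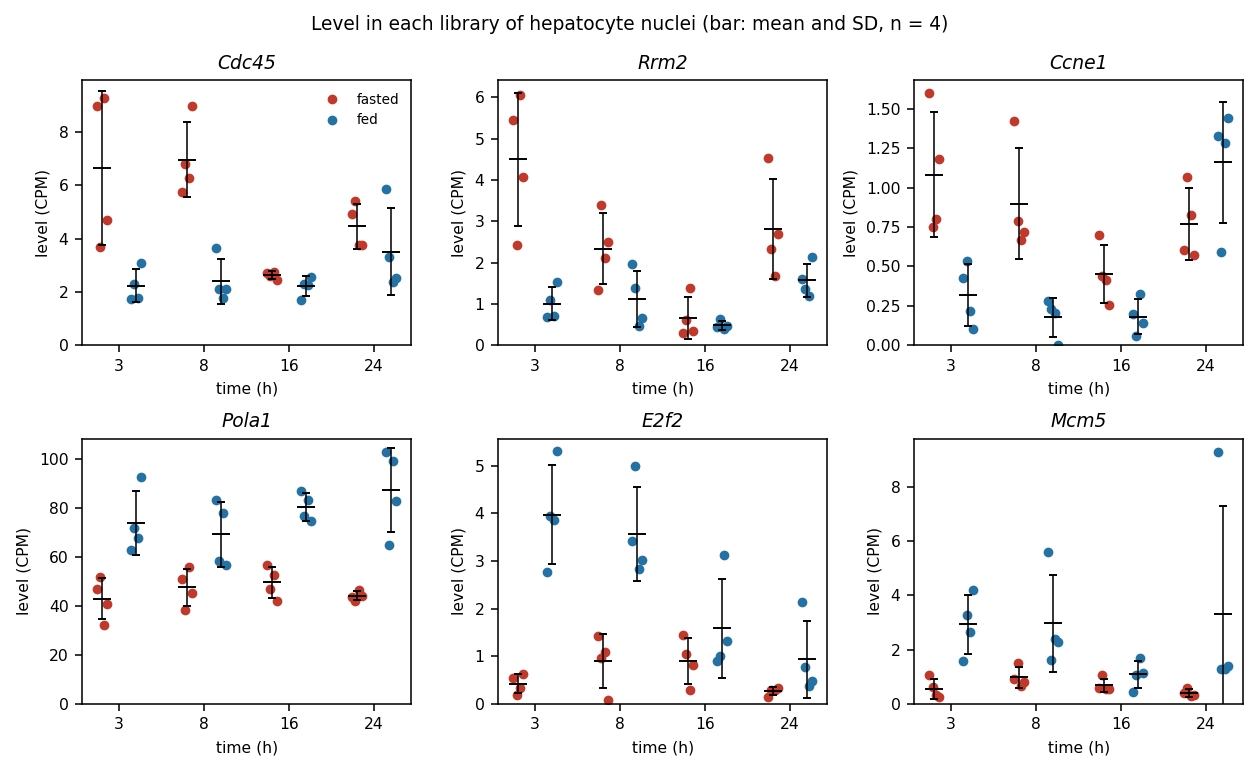
Levels in CPM of Cdc45, Rrm2, Ccne1, Pola1, E2f2 and Mcm5 in each library of hepatocyte nuclei at 3, 8, 16 and 24 h, fasted (red) left of fed (blue), with the mean and SD (n = 4 each). At 3 h Cdc45, Rrm2 and Ccne1 are higher and Pola1, E2f2 and Mcm5 lower in every fasted library; at 24 h fed replicate 1 of Mcm5 stands at 9.27 CPM above the others.

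Over the 4 times 7 members were higher and 26 lower in fasted hepatocyte nuclei, against 26.9% and 27.9% of all genes, so that the share higher lay below that background. Cdc45, Ccne2, Rrm2, Ccne1, Mcm7, Gins4 and Pcna were the 7. Pola1 was the member that fell at all 4 times; its 16 fasted libraries ranged between 32.4 and 56.7 CPM (median 46), against 57.0 to 103 CPM (median 77.5) in the 16 fed ones (-0.81 ± 0.08, edgeR adjusted p = 1.86e-09). Ccne2 rose at 3 times and no other member at more than 2. The fasting effect differed between times for 14 members, in a test that called 32.8% of all genes, and time of day among fed libraries for 14, against 30.1% of all genes; both shares were near the background. Without replicates 1, 2 or 3 of every group the first count was 9, 4 or 8, and without replicate 2 or 4 the second was 6 or 9. Of the other lists, 27 of 65 other replication genes were called at 8 h, 10 higher (15.4%) and 17 lower (26.2%), near the 18.0% and 20.7% of all genes. The smallest p-values were those of Recql4 (-1.98 ± 0.32), a helicase of origin firing, Timeless (-1.74 ± 0.34), the partner of Tipin, Dut (-1.05 ± 0.21), which removes dUTP, and Rbl1 (-1.20 ± 0.25), a retinoblastoma relative. Ccnd3 (1.89 ± 0.36) and Cdkn1a (2.57 ± 0.63) rose and Ccnd1 (-1.76 ± 0.47) and Ccnd2 (-0.88 ± 0.27) fell in hepatocyte nuclei at 8 h. Of the mitosis genes 7 of 24 fell and 3 rose at 24 h, against 12.4% and 11.6% of all genes. The share that rose lay near that background. Without fed replicate 1, 1 fell and 3 rose, and 9.96% of all genes fell, so the share that fell then lay below the background.

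Whether macrophage and hepatocyte nuclei responded differently was tested as the difference of their fasting effects, macrophage minus hepatocyte. It was called for 8 of 46 members at 3 h, 4 at 8 h, 3 at 16 h and 6 at 24 h. Of all genes 10.6%, 7.62%, 0.535% and 4.05% were called. At 8 h the share of members lay near that of all genes. At 3 h Rrm2 (-2.0 ± 0.59), Ccne1 (-2.16 ± 0.74), Mcm7 (-1.06 ± 0.30) and Gins4 (-0.90 ± 0.28) had the lower effect in macrophages, and Gins3 (1.89 ± 0.44), E2f2 (2.33 ± 0.66), Pola1 (0.90 ± 0.23) and Prim2 (0.79 ± 0.24) the higher. At 8 h Cdc45 (-1.61 ± 0.40), Pcna (-1.15 ± 0.34) and Ccne1 (-2.62 ± 0.81) were lower and Gins3 (1.49 ± 0.43) higher in macrophages. At 16 h the 3 were Prim1 (-2.02 ± 0.48), Ccne2 (-1.92 ± 0.46) and Brca1 (-1.88 ± 0.47). These calls were sensitive to single replicate numbers: without replicate 2, 3 or 4 of every group 4, 2 or 1 stood at 3 h, without replicate 2 or 4 none stood at 8 h, and without replicate 1, 2 or 4 none stood at 16 h.

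At 24 h the effect was lower in macrophage nuclei for E2f7 (-3.58 ± 0.64), Rrm2 (-2.74 ± 0.60), Cdc6 (-2.57 ± 0.75), Cdc45 (-1.85 ± 0.40), Ccne2 (-1.70 ± 0.41) and Brca1 (-1.60 ± 0.45). E2f7 had 2.02, 4.56, 1.22 and 7.91 CPM in fasted hepatocyte libraries, against 4.6, 1.7, 1.95 and 3.58 CPM in fed ones, groups that overlap, where the macrophage groups given above do not. Cdc45 had 2.01, 2.84, 2.32 and 2.61 CPM in fasted macrophage libraries at 24 h, against 9.14, 9.35, 4.06 and 5.62 CPM in fed ones. In hepatocyte nuclei Cdc45 had 4.92, 5.41, 3.77 and 3.75 CPM in fasted libraries and 5.87, 3.31, 2.38 and 2.51 CPM in fed ones, which overlap. No such call stood without replicate 2 of every group at 24 h, and without replicate 4 there were 3. Members that fell in both cell types numbered 15 at 24 h. Among members tested in both, which leaves out Gins2, that is 15 of 34 in macrophage and 15 of 17 in hepatocyte nuclei. Of all genes tested in both and lower in macrophage nuclei 46.6% were also lower in hepatocyte nuclei, and of those lower in hepatocyte nuclei 22.4% were also lower in macrophage nuclei. The shared members were 8 without hepatocyte fed replicate 1, 9 without macrophage fed replicates 1 and 2, and 5 (Dtl, Fignl1, Mcm5, Pola1 and Pole) without all 3 libraries. Of the members lower in macrophage nuclei these were 8 of 34, 9 of 18 and 5 of 18, against 36.2%, 59.7% and 45.7% of all genes. Of those lower in hepatocyte nuclei they were 8 of 9, 9 of 17 and 5 of 9, against 21.8%, 15.2% and 14.5%. As a share of the macrophage falls, sharing was thus no more frequent among members than among all genes.

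Levels also differed between the cell types. Fed macrophage nuclei had more RNA of 43 members and less of 2, Mcm10 and E2f8, than fed hepatocyte nuclei, against 40.0% of all genes higher and 42.7% lower; cell type cannot be told apart from mouse line here. Lig1 ranged between 11.5 and 31.3 CPM (median 18.4) in 16 fed macrophage libraries, against 1.79 to 7.34 CPM (median 3.53) in 16 fed hepatocyte libraries (log2 difference 2.36 ± 0.15, edgeR adjusted p = 3.55e-20). E2f1 ranged between 8.06 and 17.5 CPM (median 11.6) in macrophage libraries, against 0.847 to 4.14 CPM (median 1.72) in hepatocyte libraries (2.55 ± 0.17, adjusted p = 7.37e-20). Pola1 ranged between 138 and 246 CPM (median 189.6) in macrophage libraries, against 57.0 to 103 CPM (median 77.5) in hepatocyte libraries (1.2 ± 0.08, adjusted p = 7.52e-20). The groups of all 3 were apart. Mcm3 ranged between 8.15 and 17.4 CPM (median 12.7) in macrophage libraries, against 1.07 to 6.47 CPM (median 2.01) in hepatocyte libraries (2.33 ± 0.16, adjusted p = 2.42e-19). Clspn ranged between 2.90 and 15.8 CPM (median 6.01) in macrophage libraries, against 0.320 to 2.35 CPM (median 0.788) in hepatocyte libraries (2.90 ± 0.25, adjusted p = 1.19e-15). Uhrf1 ranged between 4.11 and 12.1 CPM (median 5.56) in macrophage libraries, against 0.0467 to 3.27 CPM (median 0.487) in hepatocyte libraries (3.32 ± 0.29, adjusted p = 3.6e-15). These too did not overlap, and Tk1 was the member not called.

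**Figure D5:**
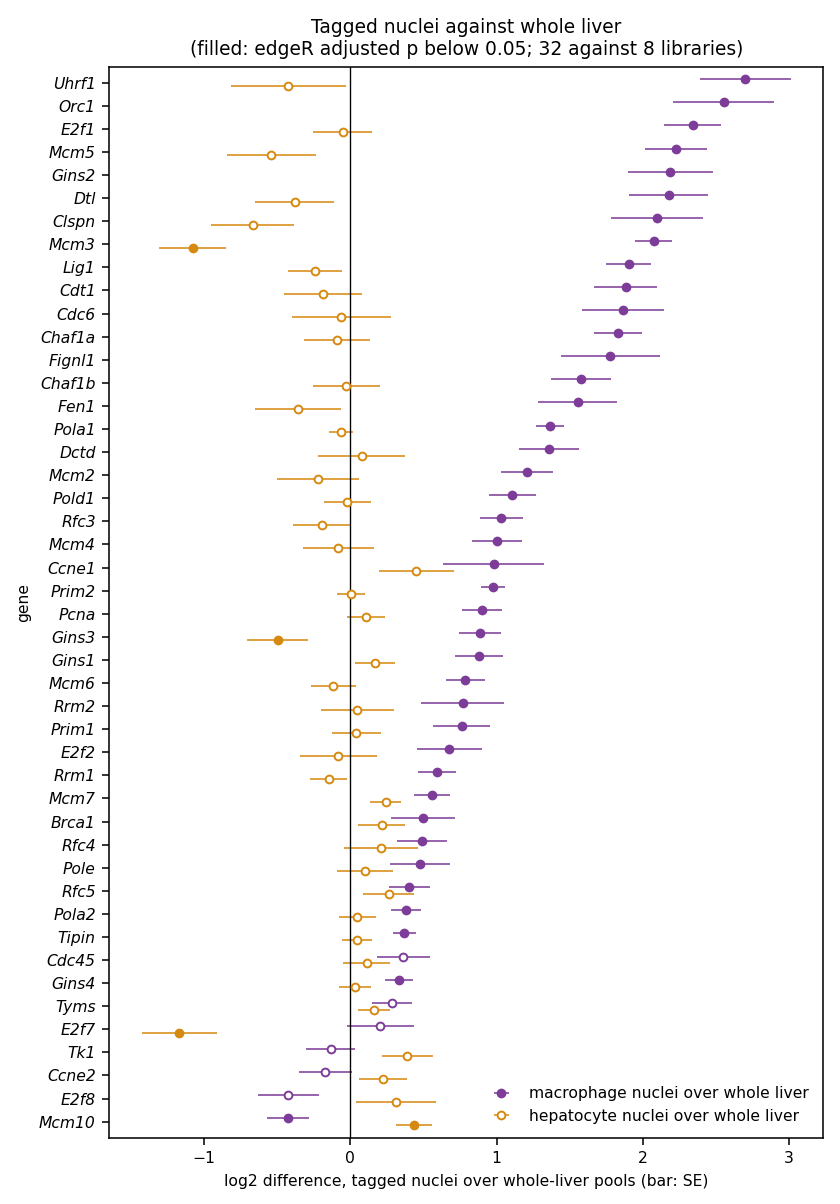
Log2 difference of tagged nuclei over whole-liver pools (x axis, bar: SE) for each gene (y axis) in MAC-INTACT mice (purple) and HEP-INTACT mice (orange), 32 against 8 libraries per line; filled points have an edgeR adjusted p below 0.05. Macrophage nuclei lie above whole liver for 39 genes and below it for Mcm10, and hepatocyte nuclei lie near zero with 4 filled points.

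Against whole liver of the same line, macrophage nuclei were higher for 39 of 46 members and lower for Mcm10, while 37.2% of all genes were higher and 40.0% lower. Mcm3 ranged between 5.58 and 17.4 CPM (median 8.62) in 32 macrophage libraries, against 1.44 to 3.86 CPM (median 2.10) in 8 pools (2.07 ± 0.13, edgeR adjusted p = 5.23e-17). Pola1 ranged between 102.3 and 268 CPM (median 166) in macrophage libraries, against 45.9 to 94.4 CPM (median 64.3) in pools (1.37 ± 0.09, adjusted p = 2.28e-15). Lig1 ranged between 5.58 and 31.3 CPM (median 13.8) in macrophage libraries, against 2.46 to 5.46 CPM (median 3.68) in pools (1.90 ± 0.15, adjusted p = 1.67e-13). Every macrophage library was above every pool in these, and in Cdt1 and Chaf1b. These 5 were chosen for lack of overlap, out of 40 members called in this comparison. The share of all genes without overlap is not given for it. Hepatocyte nuclei were higher than whole liver for Mcm10 alone and lower for Mcm3, E2f7 and Gins3 of 43 members tested, while 28.9% of all genes were higher and 20.5% lower. Without replicate 1 of every group, 8 in place of 4 members were called there.

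In whole-liver pools, averaged over the 4 times and with both lines in 1 fit, 16 of 41 members were lower in 8 fasted than in 8 fed pools, against 13.5% of all genes lower and 10.5% higher. The members were Pola1, Dtl, Clspn, Pole, E2f1, Pold1, Mcm5, Uhrf1, E2f2, Prim2, Mcm4, Lig1, Mcm2, Mcm3, Gins3 and Tyms. Pola1 ranged between 45.9 and 58.5 CPM (median 52.0) in fasted pools, against 70.2 to 94.4 CPM (median 73.4) in fed pools (-0.56 ± 0.07, edgeR adjusted p = 0.000549). Prim2 ranged between 30.3 and 42.6 CPM (median 37.9) in fasted pools, against 43.7 to 52.3 CPM (median 46.7) in fed pools (-0.34 ± 0.08, adjusted p = 0.0113). Both were apart in all pools, and the other 14 overlapped, which is given without the share of all genes. In the pools of MAC-INTACT mice alone 5 members were called, a count given without the share of all genes. edgeR called 2 of all genes in those of HEP-INTACT mice alone, no member among them.

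Per length of gene, thymidine kinase, Tk1, had the highest mean level of the members in both cell types, 5.89 CPM per kb in macrophage and 7.12 CPM per kb in hepatocyte nuclei. Pcna (1.61 CPM per kb) and Mcm7 (1.49) followed in macrophages, and Mcm7 (1.61), Mcm10 (1.03) and Pcna (1.03) in hepatocytes. Orc1 was the lowest, at 0.0414 CPM per kb in macrophage and 0.00872 CPM per kb in hepatocyte nuclei. Genes ranged in length between 3.9 kb (Pcna) and 327 kb (Pola1), and since whole gene bodies were counted, long genes collected more reads in introns. Ccne2 shares 41.9% of its length with Ints8 on the other strand. Tk1 and Gins2 lie within annotated protein-coding genes of the other strand, and Cdt1 within one of its own strand. The libraries were made with a stranded kit, but the labels do not state whether strand was used in counting, so the values of these 4 genes are uncertain. The same holds for Orc1 and Fen1, which annotated noncoding genes of the other strand overlap over 63.3% and 67.6% of their length, and for E2f8 over 21.1%. In the authors' deposited table for macrophage nuclei, which holds a subset of genes, 24 members are listed, with 0 lower at 3 h, where Mcm2 has an adjusted p of 0.0835, 14 lower at 8 h, 14 at 16 h and 18 at 24 h at their adjusted p below 0.05. The authors' deposited table for hepatocyte nuclei lists Mcm10, lower at 8 h (adjusted p = 0.00117), and E2f8, lower at 24 h (adjusted p = 0.012), where E2f8 had an adjusted p of 0.053 in the edgeR fit of the counts.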

How the data were processed

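RNA of tagged hepatocyte and macrophage nuclei (32 libraries each) and of 16 whole-liver pools was sequenced from a stranded kit without poly-A selection, per the labels' protocols. The deposited counts are raw whole-number counts per gene over whole gene bodies, as the gene lengths in the deposited table show; the reads were aligned with STAR 2.4.2a to mm10 and DESeq2 1.24.0 was used, per the submitters' processing notes, and they name neither the counting tool nor its strand setting. The authors also deposited tables of a subset of genes with a normalized signal per sample (counts divided by size factors), log2 fold changes and adjusted p-values.

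From the counts, edgeR 4.0.16 in R 4.3.3 (TMM scaling, filterByExpr with a minimum count of 10 and a minimum total of 15, robust quasi-likelihood F-test, Benjamini-Hochberg adjustment over all genes tested, threshold 0.05) was fitted over the 8 groups of 1 cell type; levels are CPM with TMM factors taken over all 80 libraries. SE is that of the log2 fold change. Tagged against whole-liver nuclei, cell types against each other and pools were fitted the same way. The fits were tested on simulated data. Among 96 pairs of replicates none agreed within sampling noise. The members and lists were chosen with earlier results of these data known. Up to 6 members per comparison were given library by library: called, without overlap of the groups, smallest adjusted p, beside counts by role. Alternatives were DESeq2 1.42.0, other scalings and filters, the library-number run as a term, fits of 8 libraries and leaving out libraries. Sequences came from RefSeq.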

Additional observations from a re-analysis of the deposited data

Results flagged for a closer look

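Values of single libraries stood apart from the other 3 of their group in 8 of 132 groups of 4 tested; chance sets apart about 1 in 20. The summed level of 43 members without the 3 most abundant was 244.3 CPM in fed hepatocyte replicate 1 at 8 h, against 145 to 157.5 CPM in the other fed libraries, and 256.6 CPM in fasted macrophage replicate 1 at 3 h, against 201.5 to 205.4 CPM in the other fasted ones. The summed level of the mitosis genes was 48.6 CPM in fasted hepatocyte replicate 1 at 3 h, against 26.7 to 28.6 CPM in the others. Ccne1 was at 1.42 CPM in fasted hepatocyte replicate 1 at 8 h, against 0.665 to 0.79 CPM. Fignl1 was at 0.0674 CPM in fasted hepatocyte replicate 1 at 24 h, where the other 3 had 0, and at 1.93 CPM in fed replicate 1 at 24 h, against 0.238 to 0.34 CPM. The same fed library had 9.27 CPM of Mcm5, against 1.27 to 1.39 CPM, and 5.67 CPM of Dtl, against 0.85 to 1.52 CPM.

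Fasting effects that differed between macrophage and hepatocyte nuclei are given as macrophage minus hepatocyte effect on the log2 scale, from the edgeR test of the difference. At 3 h they were Gins3 1.89, E2f2 2.33, Pola1 0.90, Prim2 0.79, Gins4 -0.90, Mcm7 -1.06, Rrm2 -2.0 and Ccne1 -2.16, with adjusted p between 0.00352 and 0.0499. At 8 h, where the share of members lay near that of all genes, they were Gins3 1.49, Pcna -1.15, Cdc45 -1.61 and Ccne1 -2.62, with adjusted p between 0.00683 and 0.034. At 16 h they were Prim1 -2.02, Ccne2 -1.92 and Brca1 -1.88, with adjusted p between 0.0327 and 0.046. At 24 h they were E2f7 -3.58, Rrm2 -2.74, Cdc6 -2.57, Cdc45 -1.85, Ccne2 -1.70 and Brca1 -1.60, with adjusted p between 0.000539 and 0.0383. The fasting effect differed between the 4 times for 14 members in hepatocyte nuclei and for 13 in macrophage nuclei.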

How the results depend on the processing

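Counts of called members follow, with the lowest and highest value when 1 library, or 1 replicate number of every group, was left out. In macrophage nuclei 1 at 3 h became 0 to 5, 18 at 8 h became 8 to 18, 25 at 16 h became 20 to 28 and 35 at 24 h became 30 to 37; the 13 that differ between times became 2 to 17 and the 3 that differ between fed times 0 to 8. In hepatocyte nuclei 7 at 16 h became 3 to 5, 17 at 24 h became 9 to 20, the 14 that differ between times 4 to 11 and the 14 of fed times 6 to 13. The 4 that differ between hepatocyte nuclei and whole liver became 3 to 8, and the differences between cell types went to 1 to 7 (8) at 3 h, 0 to 3 (4) at 8 h, 0 to 2 (3) at 16 h and 0 to 6 (6) at 24 h, with the count of all libraries in parentheses. Without fed macrophage libraries 1 and 2 of 24 h, 18 fell at 24 h, 7 differed between times and 1 between fed times, and without fed hepatocyte libraries 1 of 8 h and 24 h 9 changed at 24 h; both were chosen after seeing the data.

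With only the 8 libraries of that time, 4 members changed in hepatocyte nuclei at 16 h and 0 in macrophage nuclei at 3 h. At 3 h in macrophage nuclei RLE scaling gave 2 and DESeq2 3, and DESeq2 gave 21 that differ between times, 5 between fed times, and 5 cell-type differences at 16 h. The 16 members of the pools became 0 in HEP-INTACT pools alone and 5 in MAC-INTACT pools alone. The summed level of the members per library, fasted minus fed, hepatocyte nuclei, 3 h, was -9.2 CPM and became -70.8 CPM by library total. The cause of these changes was not tested, apart from the smaller number of libraries. No direction of a named value reversed. Of 42 named values of single genes, 38 kept their call in each of 8 fits without 1 library. No paired analysis was possible because the labels give the groups no replicate numbers that pair libraries; a blocked fit by run of consecutive library numbers, which the labels do not name as a pairing, moved none of these counts by more than 1.5 times. Genes near 1 CPM or below rest on few counts per library, and their fold changes are the least certain.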
